A study of Mus musculus with 10 samples.

Results

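Genes of the amino acid and neurotransmitter transporters were followed in the epididymal fat pad, a white adipose depot, of mice on normal chow or a high-fat diet. The genes were those whose symbol in the platform annotation places them in the solute carrier (SLC) families Slc1, Slc3, Slc6, Slc7, Slc36, Slc38 or Slc43, with the serotonin transporter Slc6a4 left out. The symbols alone chose them, without their measured values: 62 of the 18193 genes tested matched. Of these 62, 59 carry transporter symbols, and 3 (Slc6a19os, Slc7a6os and Slc36a1os) are named for the opposite strand of a transporter gene and are not transporters. Each gene is given by its brightest probe set, the group of probes for 1 transcript, out of 124 probe sets of these genes in all.

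All mice were male C57BL/6J animals that entered the experiment at an age of 8 weeks and stayed on their diet for 8 weeks. The chow group (CRF-1 diet) and the high-fat group (60% fat) held 5 mice each, with 1 Affymetrix array for each mouse, and the spread between mice is what the p-values rest on. Levels are log2 of quantile normalized intensities, and differences are the high-fat diet minus chow on that scale, with the standard error (SE) from limma. Adjusted p-values are from limma with Benjamini-Hochberg adjustment over all 18193 genes, and a gene passed where its adjusted p was under 0.05. Levels of different genes are not compared, since probe sets differ in brightness.

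Amino acids cross membranes on carriers that differ in the molecules they take and in what drives them. Slc1 and Slc6 carriers use the sodium gradient, and some Slc36 carriers use protons. Many Slc7 carriers are exchangers that reach the cell surface only when bound to an Slc3 heavy chain. Some Slc36 and Slc38 carriers sit on lysosomes, where amino acids leaving the lysosome are sensed by the kinase complex mTORC1. In white fat, Slc7a10 is known as a surface marker of adipocytes and Slc36a2 as a marker of brown and beige adipocytes.

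The arrays of the chow group differed among themselves more than those of the high-fat group, also for the transporter genes. The 62 genes had a median SD of 0.783 among the chow arrays and 0.404 among the high-fat arrays, against 0.569 and 0.271 over all genes. Chow arrays 1 and 2 stood apart in their marker genes, and the counts of transporter genes, and the genes whose results turn on these arrays, are also given without them. These arrays were left out after their levels were seen, so p-values of fits without them do not allow for that choice. The mean log2 level of 13 measured epididymis and testis markers ran from 7.49 to 12.08 on chow and from 4.02 to 5.61 on the high-fat diet, with 6 of 13 lower on the high-fat diet and none higher. These markers went different ways in chow array 1, which had the lowest chow mean. Among the chow arrays it was lowest for Lcn9 (1.13), Cst11 (1.32) and Lcn8 (3.72) and highest for Pate4 (12.95). For 9 epithelial markers, all 9 of which fell, the ranges were 6.71 to 10.15 and 4.14 to 4.69, and for 6 smooth muscle markers, all 6 of which fell, 8.99 to 12.41 and 6.24 to 7.36. Of 12 macrophage markers 11 rose, with means of 6.10 to 7.09 in the chow group and 9.77 to 10.54 in the high-fat group. The adipocyte marker mean was lowest in chow array 2 (9.50) and ran from 10.67 to 11.81 on the other chow arrays and from 11.25 to 11.74 on the high-fat diet, so the labelled tissue held its defining transcripts on every array. The part of these markers in the transporter results was not tested. The ratio of 5' to 3' signal of the actin control, a measure of RNA quality, was 0.272 to 0.456 in the chow group and 0.557 to 0.643 in the high-fat group. For the Gapdh control it was 0.563 to 0.900 and 1.02 to 1.08. Neither ratio overlapped between the groups, so RNA quality and diet cannot be told apart in any difference given here. In whole tissue, fewer cells of a type and less RNA per cell cannot be told apart.

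Of the 62 genes, 18 passed: 9 rose and 9 fell on the high-fat diet. That is 29.0% of these genes, where 25.9% of all genes tested passed (12.9% higher and 13.1% lower), so the count lay near the background. The genes are named here by their call over all arrays, and only 1 of the 18 calls held under all 21 alternative settings. The rises were those of 3 Slc36 carriers (Slc36a1, Slc36a2, Slc36a4), of Slc6a5, Slc6a6 and Slc6a8, and of Slc7a7, Slc38a9 and Slc43a2. The falls were those of Slc1a1, Slc3a2, Slc6a9, Slc6a20a, Slc7a2, Slc7a5, Slc7a9, Slc38a2 and Slc38a4. The groups did not overlap for 7 genes in the upward direction and 10 in the downward one, against 11.5% and 11% of all genes. The median difference of the 62 genes was 0.031, and of all genes -0.037. With each array centred on its median in place of quantile normalization, which moved the median difference of all genes to 0.21, 14 of the genes rose and 7 fell, and the share of higher genes among all that passed went from 49.6% to 75.4%.

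**Figure D1:**
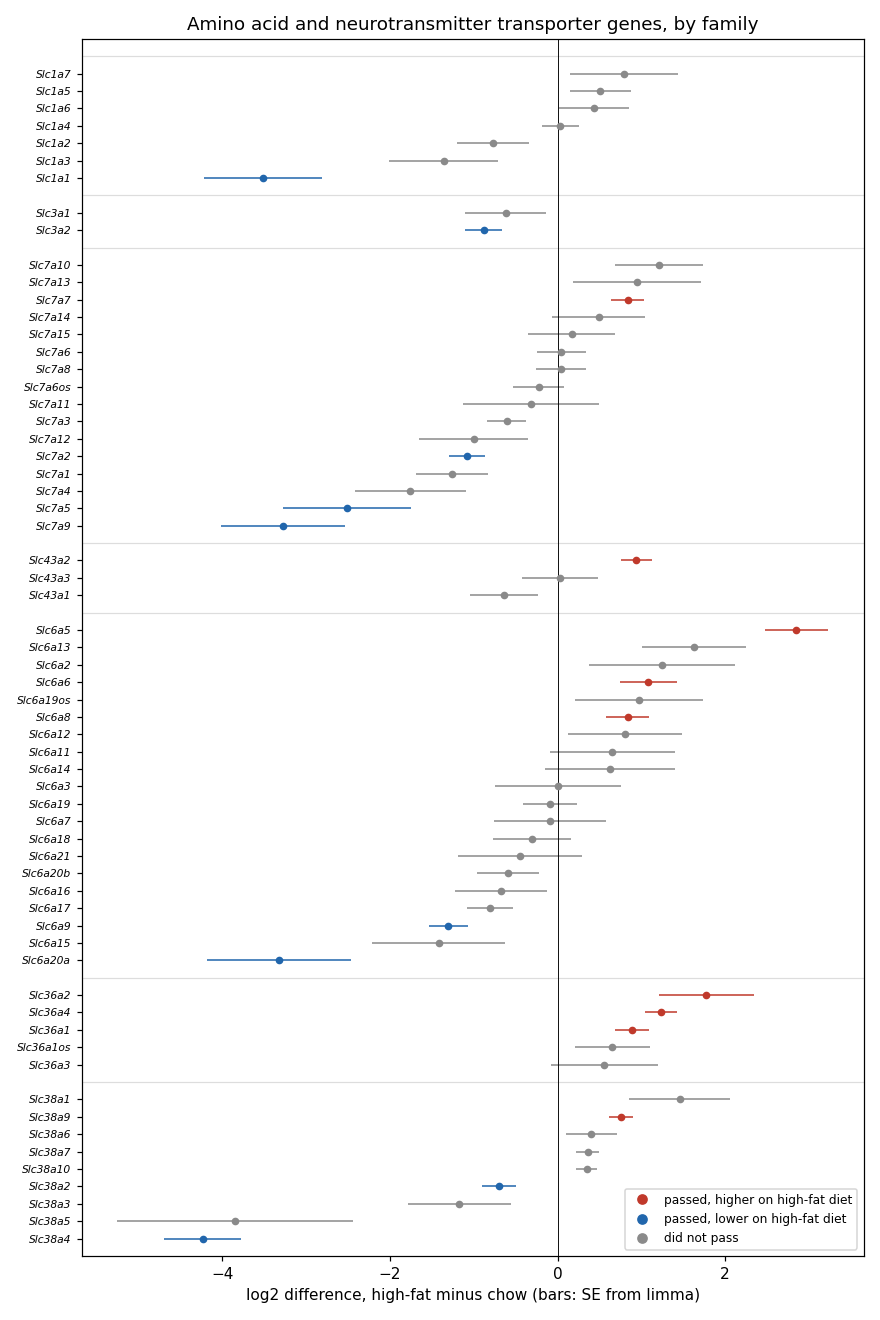
Log2 difference (high-fat minus chow, horizontal axis) of each of the 62 genes, grouped by family, with bars for the SE from limma. Red points passed and were higher on the high-fat diet (9 genes), blue points passed and were lower (9), and grey points did not pass (44).

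In the Slc36 family 3 of 5 genes rose. Slc36a4, a carrier of proline and tryptophan on endosomes and lysosomes, had levels of 7.47, 7.17, 7.83, 8.04 and 8.12 on chow arrays 1 to 5 and of 8.61, 9.05, 9.06, 8.99 and 9.10 on the high-fat arrays. All 5 high-fat arrays thus lay above all 5 chow arrays, with a difference of 1.24 (SE 0.19, adjusted p = 0.000888). Slc36a1, which exports small amino acids from lysosomes together with protons, had levels of 6.35, 5.36, 5.87, 6.17 and 6.34 on chow and of 6.73, 6.88, 6.91, 6.91 and 7.11 on the high-fat diet. It rose by 0.89 (SE 0.20, adjusted p = 0.00854), also without overlap.

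Slc36a2, the carrier known from brown and beige adipocytes, had levels of 9.23, 6.43, 9.68, 9.99 and 9.49 on chow and of 10.59, 10.95, 10.49, 11.02 and 10.64 on the high-fat diet. Chow array 2, which held the lowest adipocyte marker mean, was far below the rest. The difference was 1.77 (SE 0.57, adjusted p = 0.0402) over all arrays and 1.02 (SE 0.15, adjusted p = 0.000466) without chow arrays 1 and 2. Slc36a2 did not pass when chow array 1 or any 1 of the 5 high-fat arrays was left out (adjusted p = 0.0564 to 0.0870). Slc36a3 (0.56) and the opposite-strand transcript Slc36a1os (0.66), both dim, did not pass.

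The promoter of Slc36a1 is shown because it holds CACGTG, the core of the sites known to be bound by Tfeb, a transcription factor of lysosomal genes whose own level is given further on. RefSeq promoter windows (GRCm38.p6, 250 bases before to 50 after a start) were found for 45 of the 62 genes. CACGTG, which reads the same on both strands, occurs in 13.6% of the 66 windows of these genes and in 7.15% of all 32851 windows. The Slc36a1 window holds 2 matches, 31 and 3 bases before the start and in capitals here, on chr11:55204269-55204342, plus strand.
Slc36a1: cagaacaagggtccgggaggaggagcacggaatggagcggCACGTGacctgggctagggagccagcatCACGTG
A match is a run of letters and no evidence of binding. No other gene that passed had these letters in the windows found for it.

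In the Slc38 family, the sodium-coupled neutral amino acid carriers, 1 gene rose and 2 fell. Slc38a9, a lysosomal carrier that reports arginine to mTORC1, had levels of 6.18, 6.08, 6.20, 6.25 and 6.45 on chow and of 7.11, 6.77, 7.17, 6.76 and 7.12 on the high-fat diet. The groups did not overlap, and the gene rose by 0.76 (SE 0.14, adjusted p = 0.00322). Its 6 other probe sets differed by 0.22 to 1.33, all positive, and 2 of them passed over all probe sets. Slc38a7, a lysosomal glutamine carrier, differed by 0.36 (SE 0.14, adjusted p = 0.0870) and Slc38a6 by 0.40 (adjusted p = 0.373).

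On the log2 scale, Slc38a4 had the largest fall among the genes that passed. This carrier of neutral amino acids, known in mice as an imprinted gene, had levels of 7.82, 8.04, 7.98, 8.13 and 6.75 on chow and of 2.20, 3.09, 3.76, 3.59 and 4.91 on the high-fat diet. The gap between the groups was wide: the lowest chow array was 6.75 and the highest high-fat array 4.91. Slc38a4 fell by 4.24 on the log2 scale (SE 0.46, adjusted p = 0.000106), and its other probe set by 3.17 (SE 0.43). The log2(value + 16) scale damps changes of dim genes. On that scale Slc38a4 fell by 3.02 and Slc1a1 by slightly more (3.08). Slc38a4 was the only one of the 18 genes to keep its call under all 21 alternatives run. Of the others, 7 lost theirs only with the epididymis and testis marker mean as a covariate, a fit in which diet and marker mean cannot be told apart. Slc38a2, a carrier that cells are known to raise when short of amino acids, had levels of 10.75, 9.93, 10.997, 10.10 and 10.05 on chow and of 9.59, 9.43, 9.66, 9.88 and 9.78 on the high-fat diet. Its groups did not overlap but came close, and it fell by 0.70 (SE 0.21, adjusted p = 0.0298). With the deposited values not normalized further the call was lost (-0.36, adjusted p = 0.241), as it was with arrays centred on their medians (-0.22, adjusted p = 0.393) and without any 1 of chow arrays 1 and 3 and high-fat arrays 1, 2, 3 and 5 (adjusted p = 0.0524 to 0.0749). The second Slc38a2 probe set fell by 1.10 with overlap (SE 0.26, adjusted p over all probe sets = 0.0141). The third, dim one differed by -0.46 and did not pass.

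The brightest probe sets of Slc38a5, Slc38a1 and Slc38a3 did not pass over all arrays but did without chow array 1. Slc38a5, a glutamine carrier, had levels of 3.46, 12.48, 11.09, 8.55 and 8.02 on chow and of 5.98, 5.20, 5.72, 4.43 and 3.03 on the high-fat diet. Chow array 1 alone lay within the high-fat range. The 5 chow arrays ranked as they did for the epididymis and testis marker mean, whose markers went different ways in chow array 1. The difference was -3.85 (SE 1.41, adjusted p = 0.0677) over all arrays and -5.16 (adjusted p = 0.00325) without chow array 1. Slc38a1, a glutamine carrier of neurons and lymphocytes, was at 8.84 in chow array 1, at 6.32, 5.46, 5.47 and 5.23 in the other chow arrays, and at 7.22, 7.57, 8.30, 7.54 and 7.99 on the high-fat diet. Chow arrays 2 to 5 lay below every high-fat array and chow array 1 above them all. Slc38a1 differed by 1.46 (SE 0.60, adjusted p = 0.103) over all arrays and by 2.10 (adjusted p = 0.000562) without chow array 1. Its other probe set rose over all 10 arrays (0.81, SE 0.22, adjusted p over all probe sets = 0.0256). Slc38a3, another glutamine carrier, was at 4.78, 5.36, 7.85, 8.10 and 7.30 on chow and at 5.79, 5.40, 4.98, 5.29 and 6.04 on the high-fat diet. Chow array 1 lay below every high-fat array, chow array 2 among them and the other chow arrays above them all. Slc38a3 differed by -1.18 (adjusted p = 0.190) over all arrays and by -1.65 (adjusted p = 0.0388) without chow array 1.

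Slc38a10, a relative of these carriers, was called or not according to the probe set. Its brightest probe set had levels of 10.35, 10.32, 9.9996, 10.36 and 10.47 on chow and of 10.82, 10.81, 10.48, 10.75 and 10.39 on the high-fat diet, and the groups overlapped (0.35, SE 0.13, adjusted p = 0.0654). The next brightest was at 9.57, 9.61, 9.13, 9.58 and 9.82 on chow and at 10.62, 10.79, 10.26, 10.64 and 10.44 on the high-fat diet, without overlap. Of its 6 other probe sets, 4 passed over all probe sets, where 17.9% of all did, with rises of 0.76 to 1.62. The brightest one passed with the values as deposited (0.71, adjusted p = 0.00713) and with arrays centred on their medians (0.84, adjusted p = 0.00118).

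**Figure D2:**
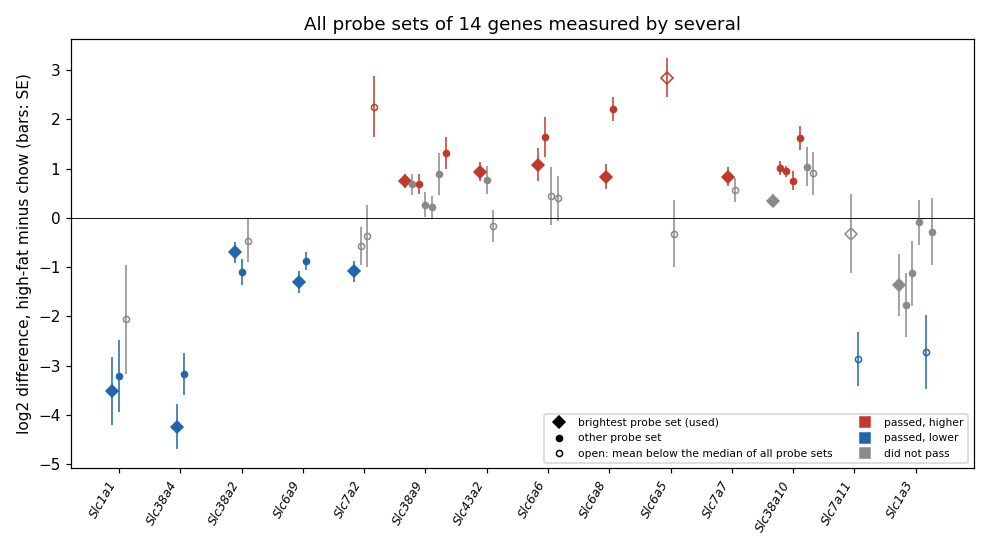
Log2 difference (high-fat minus chow, vertical axis, bars SE) of every probe set of 14 genes with several. Diamonds are the brightest probe set, circles the others, open symbols lie below the median level of all probe sets, and colours give the call over all probe sets. Slc38a10 shows 4 rises beside a brightest probe set that did not pass, and Slc7a2 a fall beside 1 dim rise.

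Across all 62 genes, 32 had several probe sets. Of 23 other probe sets of genes that passed, 8 passed in the same direction, 14 did not pass and 1 passed in the opposite direction. That 1 belonged to Slc7a2, which carries arginine and lysine. Its brightest probe set was at 6.68, 6.44, 7.08, 6.90 and 6.63 on chow and at 5.10, 5.51, 5.95, 5.67 and 6.08 on the high-fat diet and fell by 1.08 without overlap (SE 0.22, adjusted p = 0.00418). A dim probe set of Slc7a2 rose by 2.26 (SE 0.62, adjusted p over all probe sets = 0.0264), and the mean of all its probe sets differed by 0.06 (adjusted p = 0.910). The direction for Slc7a2 therefore holds for the brightest probe set.

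Among the heavy chains and the Slc7 light chains that bind them, Slc3a2, Slc7a5 and Slc7a9 fell and Slc7a7 rose. Slc3a2, the CD98 heavy chain that carries several Slc7 light chains to the cell surface, had levels of 10.44, 11.49, 11.02, 10.23 and 10.46 on chow and of 9.81, 10.0002, 9.63, 9.86 and 9.93 on the high-fat diet. Slc7a5, its partner in the leucine and glutamine exchanger LAT1, had levels of 7.74, 12.13, 10.21, 8.29 and 7.43 on chow and of 6.43, 6.66, 6.88, 6.73 and 6.54 on the high-fat diet. Both were highest in chow arrays 2 and 3, the arrays with the highest epididymis and testis marker means (12.08 and 10.67), and neither overlapped between the groups. Slc3a2 fell by 0.88 (SE 0.22, adjusted p = 0.0129) and Slc7a5 by 2.51 (SE 0.77, adjusted p = 0.0335). For Slc3a2 the call was lost with the values as deposited (-0.55, adjusted p = 0.108) and with arrays centred on their medians (-0.41, adjusted p = 0.174). Slc7a5 did not pass without chow array 3 (-2.25) or without any 1 high-fat array (adjusted p = 0.0622 to 0.0801), though it did without chow arrays 1 and 2 (-1.99, SE 0.48, adjusted p = 0.00795).

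Slc7a9, the light chain that takes up cystine and basic amino acids in kidney and gut, fell by 3.28 (SE 0.74, adjusted p = 0.00801), and by 1.91 on the log2(value + 16) scale. It was at 3.45, 7.17, 4.85, 7.54 and 6.61 on chow and at 2.45, 3.39, 1.90, 2.22 and 3.26 on the high-fat diet; chow array 1 was only just above the highest high-fat array. Its heavy chain Slc3a1, dim throughout, differed by -0.62 (adjusted p = 0.392). Slc1a1, a glutamate and cysteine carrier of epithelia and neurons, was at 8.14, 11.50, 9.47, 7.60 and 7.59 on chow and at 6.39, 5.59, 5.09, 5.18 and 4.48 on the high-fat diet. It fell by 3.51 (SE 0.70, adjusted p = 0.00421), and by 2.87 (SE 0.50, adjusted p = 0.00119) without chow arrays 1 and 2. Its second probe set fell by 3.20 (SE 0.73), and the third, dim one differed by -2.06.

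**Figure D3:**
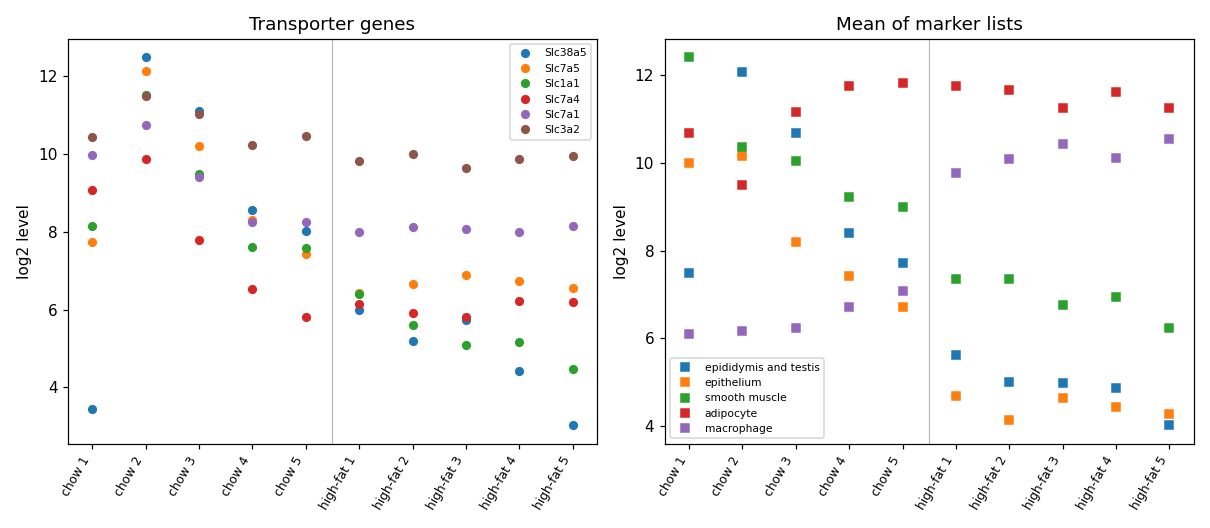
Log2 level on each of the 10 arrays of 6 transporter genes (left) and mean log2 level of 5 marker lists (right). Slc7a5, Slc1a1 and Slc38a5 were highest in chow array 2, where the epididymis and testis marker mean was also highest (12.08); heights of different genes are not comparable.

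2 more Slc7 genes were high in chow arrays 1 and 2. Slc7a1, the main arginine carrier of many cells, was at 9.96, 10.73, 9.42, 8.24 and 8.24 on chow and at 7.99, 8.11, 8.06, 7.98 and 8.15 on the high-fat diet. The groups did not overlap, but chow arrays 4 and 5 lay just above the high-fat range, and the difference did not pass (-1.26, SE 0.43, adjusted p = 0.0503). It passed without chow array 4 or 5 (adjusted p = 0.0197 and 0.0182), and was -0.57 (adjusted p = 0.0811) without chow arrays 1 and 2. Slc7a4, whose substrate is not settled, was at 9.08, 9.86, 7.79, 6.52 and 5.80 on chow and between 5.80 and 6.22 on the high-fat diet. Chow array 5 was level with the lowest high-fat array, and the difference did not pass (-1.76, SE 0.66, adjusted p = 0.0750). It passed without chow array 4 (-2.08, adjusted p = 0.0468) or 5 (-2.26, adjusted p = 0.0146). The means of the epithelial markers were likewise highest in chow arrays 1 and 2, at 9.99 and 10.15.

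Slc7a7, a light chain that exchanges basic for neutral amino acids and is expressed in gut, kidney and macrophages, rose. Its levels were 4.94, 5.72, 5.36, 5.48 and 5.64 on chow and rose to 6.39, 6.22, 5.97, 6.53 and 6.21 on the high-fat diet, without overlap (0.84, SE 0.20, adjusted p = 0.00990). The macrophage marker mean was also above the chow range on every high-fat array (9.77 to 10.54), and its part in the rises of Slc7a7 and of the lysosomal carriers Slc36a1 and Slc38a9 was not tested. The other Slc7a7 probe set, a dim one, overlapped between the groups and did not pass (0.57, SE 0.24, adjusted p over all probe sets = 0.129). Slc7a11, the cystine and glutamate exchanger that supplies glutathione synthesis, was at 4.70, 6.02, 4.61, 3.64 and 0.79 on chow and at 4.08, 3.14, 4.12, 3.83 and 3.01 on the high-fat diet, and its brightest probe set did not pass (-0.32, SE 0.81, adjusted p = 0.814). A dimmer probe set of Slc7a11 fell by 2.86 (SE 0.55, adjusted p over all probe sets = 0.00448). On the high-fat diet that probe set was near the floor of the scale (1.43, 0.38, -0.60, -0.60 and -0.10), so the size of its fall is imprecise. Both Slc7a11 probe sets had a mean below the median level of all probe sets.

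The promoters of Slc7a7 and Slc7a11 are shown as examples of the 4 genes with the motif TGATGNAA in a window; the others, Slc1a4 and Slc6a21, have it 4 and 28 bases before a start and did not pass. Its form with C at the open position is known as a site for Atf4 paired with C/EBP proteins, which switch on genes when amino acids run short. It was searched on both strands and occurs in 5 of the 66 windows of the transporter genes (7.58%) and in 3.97% of all windows. Overlapping windows of Slc7a7 share the TGATGCAA shown, so this site counts more than once among the 5. The stretches lie on chr14:54417938-54417985 and chr3:50443653-50443719, both on the minus strand of GRCm38.p6, with matches in capitals. In the most upstream Slc7a7 window the match shown starts 1 base before the start, and in Slc7a11 matches start 66 and 47 bases before it. The same Slc7a7 window also holds TGATGAAA 141 bases before the start, which is not shown.
Slc7a7: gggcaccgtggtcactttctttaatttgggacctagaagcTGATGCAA
Slc7a11: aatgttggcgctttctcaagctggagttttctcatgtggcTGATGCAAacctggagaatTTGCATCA
The 2 genes did not move alike on these arrays: the brightest Slc7a7 probe set rose and the brightest Slc7a11 probe set did not pass.

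Among the other Slc7 genes, Slc7a10, the adipocyte carrier of small neutral amino acids such as serine, was at 8.38, 6.51, 9.24, 9.75 and 9.54 on chow and at 10.09, 10.20, 9.65, 9.98 and 9.54 on the high-fat diet. Chow arrays 1 and 2 were lowest, as they were for the adipocyte marker mean, and the difference did not pass (1.21, SE 0.52, adjusted p = 0.118; 0.38, adjusted p = 0.103 without these arrays). With the values as deposited it did (1.49, adjusted p = 0.0441), and with arrays centred on their medians (1.63, adjusted p = 0.0283). Slc7a8, the other large neutral amino acid light chain that pairs with Slc3a2, was at 6.35, 7.57, 8.18, 7.85 and 7.93 on chow and at 7.45, 7.87, 7.57, 7.67 and 7.51 on the high-fat diet. Chow array 1 was the lowest of all arrays and the groups overlapped. Slc7a8 differed by 0.04 (SE 0.30, adjusted p = 0.942) over all arrays and by -0.37 (SE 0.12, adjusted p = 0.0361) without chow arrays 1 and 2. The remaining Slc7 genes (Slc7a3, Slc7a6, Slc7a6os, Slc7a12, Slc7a13, Slc7a14 and Slc7a15) did not pass over all arrays, with differences from -1.002 to 0.95. Slc7a3, an arginine carrier of neurons, was dim, between 4.27 and 4.74 on chow and between 3.64 and 4.02 on the high-fat diet, and did not pass despite the lack of overlap (-0.61, adjusted p = 0.0833). Slc7a6os was lower without chow arrays 1 and 2 (-0.68, adjusted p = 0.0131), and the dim Slc7a13 higher without chow array 5 (1.65, adjusted p = 0.0445).

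In the Slc43 family of facilitators, Slc43a2, which carries large neutral amino acids such as leucine, was at 7.55, 6.75, 7.57, 7.25 and 7.62 on chow and at 7.96, 8.15, 8.52, 8.34 and 8.49 on the high-fat diet. It rose by 0.94 (SE 0.19, adjusted p = 0.00404) without overlap, though not with the mean of its probe sets (0.52, adjusted p = 0.131). Slc43a1, its close relative, differed by -0.64 (adjusted p = 0.284) over all arrays and was lower without chow array 2 (-1.05, adjusted p = 0.00415). Slc43a3, a carrier of purine bases rather than amino acids, was at 8.06, 7.43, 9.82, 9.69 and 9.86 on chow and at 8.65, 9.12, 8.98, 9.06 and 9.20 on the high-fat diet. The high-fat arrays lay between chow arrays 1 and 2 on one side and 3 to 5 on the other, so the difference was 0.03 (SE 0.45, adjusted p = 0.971) over all arrays and -0.79 (SE 0.12, adjusted p = 0.000587) without chow arrays 1 and 2.

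Of the 20 Slc6 genes, 3 rose and 2 fell, and 6 had a mean level above the median of all probe sets (4.39). Slc6a6, the taurine carrier, was at 9.02, 8.21, 10.33, 9.59 and 9.71 on chow and at 9.90, 10.55, 10.62, 10.60 and 10.60 on the high-fat diet. High-fat array 1 lay below chow array 3, and the gene rose by 1.08 (SE 0.34, adjusted p = 0.0360). Without chow array 1 or any 1 of high-fat arrays 2 to 5 it did not pass (adjusted p = 0.0727 to 0.0802); without chow arrays 1 and 2 the rise was 0.58 (SE 0.20, adjusted p = 0.0460). Its second probe set rose by 1.64 (SE 0.40).

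Slc6a8, the creatine carrier, was at 8.52, 7.54, 7.92, 8.41 and 8.85 on chow and at 8.61, 8.83, 9.43, 9.11 and 9.44 on the high-fat diet. Chow array 5 lay above the 2 lowest high-fat arrays, and the gene rose by 0.84 (SE 0.26, adjusted p = 0.0328). The call was lost without chow array 3 or any 1 of high-fat arrays 3 to 5 (adjusted p = 0.0685 to 0.0831). The other Slc6a8 probe set was at 5.97, 5.60, 5.99, 6.54 and 6.90 on chow and at 8.09, 8.15, 8.67, 8.58 and 8.56 on the high-fat diet, without overlap, and rose by 2.21 (SE 0.24, adjusted p over all probe sets = 0.000109). Gatm, which makes the precursor of creatine, rose by 2.57 (SE 0.36, adjusted p = 0.000481).

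Slc6a9, the more widely expressed of the glycine carriers, was at 7.73, 7.80, 6.84, 6.89 and 6.94 on chow and at 5.65, 5.90, 5.85, 6.32 and 5.97 on the high-fat diet. It fell by 1.30 (SE 0.23, adjusted p = 0.00239) without overlap, and its second probe set fell by 0.86 (SE 0.18). Slc6a5, the glycine carrier of inhibitory neurons, was dim and near the floor of the scale on chow: 0.04, -0.44, -0.54, 0.49 and 0.41 on chow and then 2.74, 2.65, 2.94, 2.70 and 3.19 on the high-fat diet. Its difference of 2.85 (SE 0.38, adjusted p = 0.000358) shrank to 0.45 on the log2(value + 16) scale, and its other probe set differed by -0.32. Slc6a20a, a proline carrier of epithelia with a near-identical copy, Slc6a20b, was at 5.39, 5.44, 2.85, 5.74 and 3.78 on chow and at 1.88, 2.76, -0.45, -0.60 and 2.99 on the high-fat diet, with 1 array of each group overlapping. It fell by 3.33 (SE 0.86, adjusted p = 0.0165), or 1.16 on the log2(value + 16) scale, and did not pass without chow arrays 1 and 2 (-2.81, adjusted p = 0.0513). Slc6a20b differed by -0.59 (adjusted p = 0.280), and probes of the pair may bind both transcripts.

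Slc6a13, a carrier of the transmitter GABA, was at 5.46, 6.17, 6.43, 8.48 and 8.9997 on chow and at 9.27, 8.91, 8.18, 8.91 and 8.41 on the high-fat diet. Chow arrays 4 and 5 lay within the high-fat range and the other chow arrays far below it (1.63, SE 0.62, adjusted p = 0.0777). It passed without chow array 4 (1.97, adjusted p = 0.0399) or 5 (2.10, adjusted p = 0.0147), with the values as deposited (1.83, adjusted p = 0.0342) and with arrays centred on their medians (1.97, adjusted p = 0.0253). Slc6a2, the noradrenaline carrier of sympathetic nerves, was at -0.13 in chow array 1, at 4.61, 4.93, 4.69 and 4.89 on the other chow arrays and at 5.07, 4.59, 4.98, 5.17 and 5.41 on the high-fat diet. It did not pass (1.25, SE 0.88, adjusted p = 0.335). Of 6 measured neuron and glia markers, none passed, and their mean ran from 3.83 to 4.72 on chow and from 3.37 to 4.24 on the high-fat diet. Slc6a17, a vesicular carrier of neurons, differed by -0.80 (adjusted p = 0.0529), and fell under 6 of the alternatives, among them the values as deposited (-0.88, adjusted p = 0.0442). The other 11 Slc6 genes (Slc6a3, Slc6a7, Slc6a11, Slc6a12, Slc6a14, Slc6a15, Slc6a16, Slc6a18, Slc6a19, Slc6a19os and Slc6a21) were dim and did not pass, with differences from -1.42 to 0.97.

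In the Slc1 family 6 of 7 genes did not pass. Slc1a5, the glutamine carrier ASCT2, was at 9.90, 9.36, 10.54, 11.30 and 11.28 on chow and at 11.43, 11.13, 10.60, 11.10 and 10.66 on the high-fat diet, and its difference did not pass (0.51, SE 0.36, adjusted p = 0.339; -0.05, SE 0.22 without chow arrays 1 and 2). Slc1a3, a glutamate carrier best known from glia, was at 8.25, 6.25, 9.83, 10.17 and 9.72 on chow and at 8.14, 7.58, 7.33, 7.40 and 6.98 on the high-fat diet. Chow arrays 3 to 5 lay above every high-fat array, whereas chow array 2 was the lowest of all 10. Slc1a3 differed by -1.36 (SE 0.65, adjusted p = 0.152) over all arrays, by -2.01 (adjusted p = 0.00242) without chow array 2 and by -2.42 (SE 0.22, adjusted p = 2.82e-05) without chow arrays 1 and 2. Of its 5 other probe sets, 1 fell by 2.72 (SE 0.75) and the others did not pass. Endothelial marker means were lowest in the same chow arrays, at 7.93 and 7.13 in arrays 1 and 2 against 9.50 to 9.87 in arrays 3 to 5. On the high-fat diet they were 8.33 to 8.96, between these chow arrays. The neutral amino acid carrier Slc1a4 differed by 0.03 (adjusted p = 0.930), and the dim Slc1a2, Slc1a6 and Slc1a7 by -0.77, 0.43 and 0.80.

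**Figure D4:**
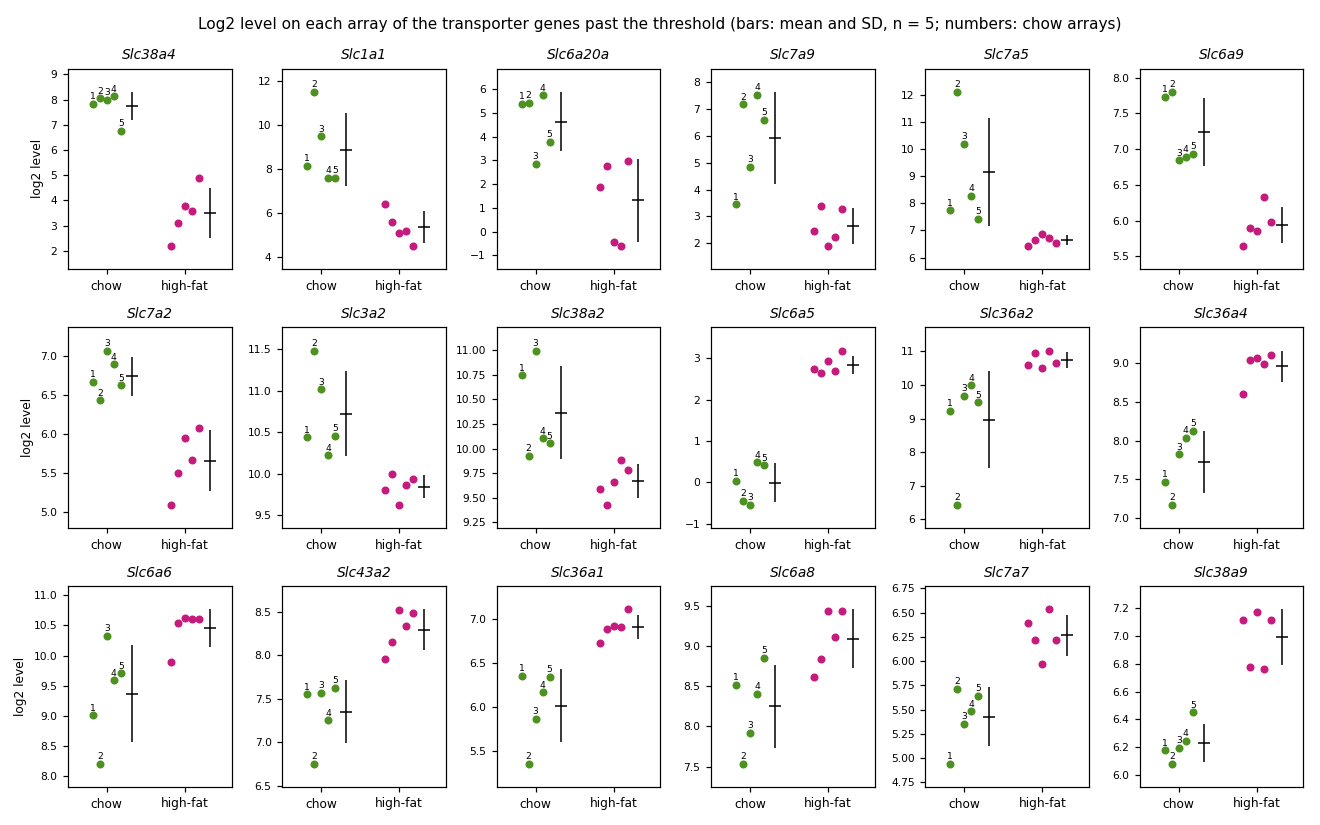
Log2 level on each array (points) of the 18 genes that passed, with mean and SD of the 5 arrays of each group (bars); chow arrays are numbered. The upper row and the first panels of the second row hold the 9 falls, the other panels the 9 rises. Among the chow arrays, array 2 was highest for the falls Slc1a1, Slc7a5, Slc3a2 and Slc6a9 and the rise Slc7a7. It was lowest for the rises Slc36a2, Slc36a4, Slc36a1, Slc6a6, Slc43a2, Slc6a8 and Slc38a9 and the falls Slc7a2 and Slc38a2. Over all genes it was highest for 33.2% and lowest for 27.2%.

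Without chow arrays 1 and 2, 25 of the 62 genes passed, 10 higher and 15 lower, where 38.2% of all genes did. Of the 18 genes above, 17 passed again in the same direction, and Slc6a20a did not. The 8 further genes were Slc38a1, which rose by 2.33 (SE 0.22), and Slc1a3, Slc7a6os, Slc7a8, Slc38a3, Slc38a5, Slc43a1 and Slc43a3, which were lower. For Slc1a3, Slc7a6os, Slc7a8, Slc38a3, Slc43a1 and Slc43a3 the arrays left out held the lowest chow levels, and for Slc38a1 the highest. Leaving them out thus moved these genes toward a call. In these 8 arrays the endothelial marker means of chow arrays 3 to 5 (9.50 to 9.87) lay above every high-fat array (8.33 to 8.96). Over all chow arrays (7.13 to 9.87) they overlapped. The part of this in the further calls was not tested. Chow arrays 3 to 5 also kept epididymis and testis marker means of 10.67, 8.40 and 7.71, above every high-fat array. With that mean as a covariate in the fit over all arrays, 0 of the 62 genes rose in limma's test and 1, Slc38a4, fell (-4.23, SE 0.93, adjusted p = 0.0411), where 3.57% of all genes passed. At an unadjusted p under 0.05, 3 of the genes were higher and 7 lower in that fit, where 19.6% of all genes were under it. The epididymis and testis marker means did not overlap between the diets, so diet and this marker mean cannot be told apart.

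**Figure D5:**
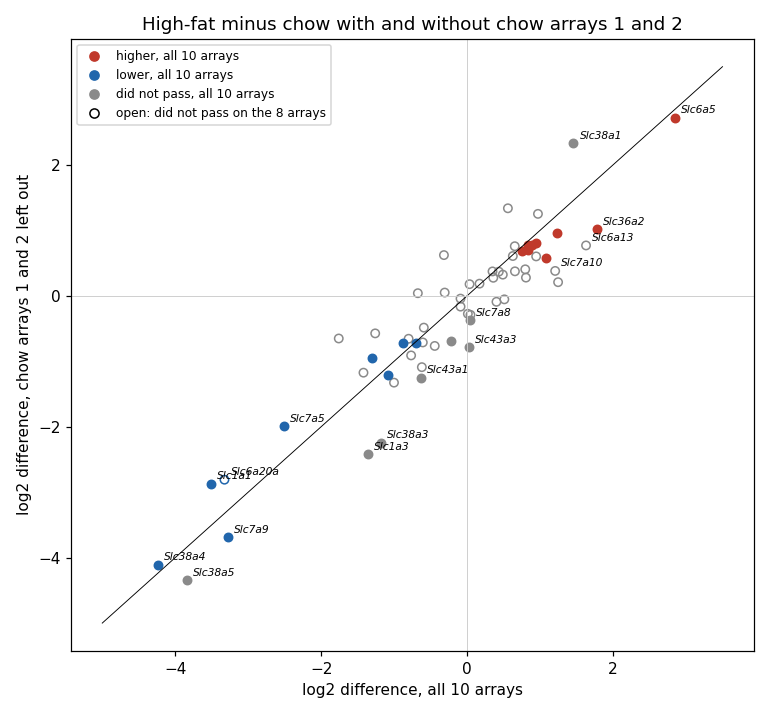
Log2 difference of each of the 62 genes over all 10 arrays (horizontal axis) and with chow arrays 1 and 2 left out (vertical axis); the line marks equal values. Colours give the call over all arrays and open circles did not pass on the 8 arrays. Slc1a3, Slc38a3, Slc43a1 and Slc43a3 lie below the line, and Slc38a1 above it.

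Other genes of amino acid handling were taken from 5 lists, whose counts read against the 12.9% of all genes that rose and the 13.1% that fell. In the list of mTORC1 and its amino acid sensors, 9 of 36 measured genes rose and 2 fell, with a median difference of 0.22. Fnip2, a partner of the Rag GTPase regulator folliculin, rose by 2.06 (SE 0.24), the mTOR inhibitor Deptor by 2.04 (SE 0.42), the lysosomal transcription factor Mitf by 1.46 (SE 0.41) and Sesn3, a sestrin, by 1.07 (SE 0.19). Tfeb, a relative of Mitf, rose by 0.73 (SE 0.13, adjusted p = 0.00215). Castor2, Fnip1, Rragc and Lamtor1 also rose, by 0.46 to 0.85, and Seh1l and Rheb fell by 0.58 and 0.40.

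Of 30 amino acid response genes, 4 rose and 4 fell, with a median difference of 0.04. The stress factor Atf3 rose by 3.60 (SE 0.20), the lipoprotein receptor Vldlr by 1.27 (SE 0.18), Psat1 by 0.64 (SE 0.19) and Ddit3 by 0.63 (SE 0.12). The transcript of Atf4, the factor at the head of this response, fell by 0.37 (SE 0.12, adjusted p = 0.0492), just past the threshold. Wars, which charges tryptophan to its transfer RNA, fell by 2.02 (SE 0.57) and Cth, an enzyme of cysteine synthesis, by 1.62 (SE 0.45).

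Glutamine, glutamate and serine metabolism held 2 rises and 5 falls among 25 measured genes, with a median difference of -0.14. The glycine cleavage gene Gldc fell by 3.81 (SE 0.77), Got2 by 1.82 (SE 0.50) and Gclc, which starts glutathione synthesis, by 1.32 (SE 0.13), while the alanine aminotransferase Gpt rose by 2.31 (SE 0.37). In arginine, proline and polyamine metabolism 1 of 25 rose and 4 fell, with a median difference of 0.02. The arginase Arg2 fell by 6.19 (SE 0.96; 3.30 on the log2(value + 16) scale), the proline oxidase Prodh by 1.74 (SE 0.27) and Asl, which releases arginine, by 1.01 (SE 0.23). Of 17 other amino acid, peptide and vesicular transporters, 3 rose and 1 fell, with a median difference of 0.30. The lysosomal peptide and histidine carriers Slc15a3 and Slc15a4 rose by 4.64 (SE 0.25) and 0.79 (SE 0.19), Slc16a10, a carrier of aromatic amino acids, by 1.11 (SE 0.37), and the peptide carrier Slc15a2 fell by 1.67 (SE 0.42).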

How the data were processed

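The authors deposited linear intensities of 45101 probe sets on 10 arrays. Per the labels' protocols, each array was hybridised with biotin-labelled cRNA from the total RNA of 1 mouse; how probes were summarised and scaled is not given in the sources used here. Groups and replicate numbers come from the sample titles.

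Values below the 5th percentile (0.658) were set to it before taking log2. The array medians then differed by 0.613, above a limit of 0.5, so arrays were quantile normalized. Of all probe sets, 34958 had 1 symbol in the platform annotation, 932 several and 9211 none listed; 64 control probe sets were left out of tests. The brightest probe set of each of 18193 genes was fitted with limma 3.58.1 in R 4.3.3 (lmFit, eBayes with trend). No set test was run. Median intensities lay between 17.9 and 27.4, and precision is limited by the number of arrays. On simulated data for this comparison with 18193 genes, 62 of 100 log2 changes of 1 and 87 of 100 of 2 were found again, with 12 false calls. Only 100 genes of each size were changed there, whereas 25.9% of all genes passed in the real data. The simulated rates therefore need not hold for the real data.

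The genes and lists were chosen with earlier results of these data known. Values on every array are given for genes past the threshold without overlap (at most 12 in each direction by log2(value + 16)) and for 19 transporters named whatever their values. Per-array values of Slc38a3, Slc38a5, Slc6a13, Slc6a20a, Slc7a4, Slc38a10 and second probe sets, and the list genes Tfeb, Atf4, Psat1 and Ddit3, were added after their values were seen.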

Additional observations from a re-analysis of the deposited data

Results flagged for a closer look

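The lowest or highest array was compared with the others in each group of 5 for the 26 genes named in full, which makes 52 groups; chance marks about 1 in 20 such groups, and 5 were marked. Slc6a2 was at -0.13 in chow array 1, with the nearest chow array at 4.61. Its other, dim probe sets were at 3.04 to 4.53 in that array. Slc36a2 was at 6.43 in chow array 2, with the nearest at 9.23. Slc38a4 was at 6.75 in chow array 5, with the nearest at 7.82. Slc6a6 and Slc36a4 were lowest in high-fat array 1, at 9.90 and 8.61, with the nearest high-fat arrays at 10.55 and 8.99.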

How the results depend on the processing

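Over 21 alternatives and 1275 values of the 62 genes, 1173 kept their direction and side of the threshold or stayed uncalled, 47 lost and 46 gained a call, and 9 changed sign where a call was involved. With 1 array left out, 6 to 11 of the genes were higher, 7 to 11 lower, 23 to 41 pathway genes passed and 3652 to 5577 of all genes did; 5 of the 18 calls were lost in at least 1 such fit. With arrays centred on their medians 14 were higher, and with array weights 15 were lower and 53 pathway genes passed, against 34, where 37.5% of all genes passed against 25.9%. Without chow arrays 1 and 2, 15 were lower and 61 pathway genes passed, where 38.2% of all genes did, and Slc43a3 (-0.79) and Slc7a8 (-0.37) changed sign. With the epididymis and testis mean as a covariate, 0 were higher, 1 lower, 7 pathway genes and 650 of all genes passed, and Slc1a1 (0.0205), Slc3a2 (0.0679), Slc7a5 (1.42), Slc36a1 (-0.0058), Slc36a2 (-0.30) and Slc6a8 (-0.33) changed sign; 7 of the 18 calls were lost in that fit alone. Slc7a2 changed sign with the mean of its probe sets (0.0631). With the replicate block, 8 genes were higher and 9 lower, and 3762 of all genes passed, with the call lost for Slc36a2 (adjusted p = 0.0587); the replicate numbers did not pair the arrays (correlations of deviations -0.020 to 0.006). The dim genes have little signal over background, so their differences are imprecise.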
